A study of Homo sapiens with 6 samples.

Results

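The Yippee-like genes YPEL1, YPEL2, YPEL3, YPEL4 and YPEL5 were followed in RNA sequencing libraries of cells labelled LNCaP, a human prostate cancer cell line, with and without overexpression of the long noncoding RNA VIM-AS1. The 5 genes were found by symbol among the 25969 genes in the data, and all 5 passed the filter of a mean value of at least 1. The family was selected on the strong fall of YPEL3 in this same comparison, so the values of YPEL3 are given below as a description with no test, while the other 4 genes belong to it by homology and were tested in the fit over all genes. By their labels, 3 libraries come from cells given an expression vector for VIM-AS1 and 3 from cells given pcDNA3.1, the control vector. No clone, selection or time after transfection is named for either group, and separate cultures for the libraries within a group are not mentioned. The p-values below therefore measure only how far these libraries differ among themselves, and that spread may be technical. In bulk RNA, fewer cells that make a transcript and less of that transcript per cell cannot be told apart.

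Yippee-like proteins are small zinc-binding proteins that are strongly conserved from yeast to human, and they are named after the Yippee protein of Drosophila. YPEL3 is known as a gene whose forced expression slows growth and brings on senescence in several cell types. YPEL5, the most divergent of the human proteins, binds the CTLH ubiquitin ligase complex, the human counterpart of the yeast GID complex. YPEL1, YPEL2 and YPEL4 are less studied. In the GENCODE annotation, 1 coding sequence per gene was compared, the one that most of its transcripts share or, on a tie, the longest. Those of YPEL1, YPEL2 and YPEL3 encode 119 residues, that of YPEL4 encodes 127 and that of YPEL5 encodes 121, while other transcripts of YPEL3 encode 54 to 157 and another of YPEL1 encodes 44. YPEL1 and YPEL2 share 96.6% of residues, and YPEL3 shares 88.2% with YPEL1 and 89.1% with YPEL2. YPEL4 shares 74.8% with YPEL1, 76.4% with YPEL2 and 74.8% with YPEL3. YPEL5 shares only 37.8% to 42.1% with the others.

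The 3 genes that were lower in every VIM-AS1 library than in every control library, YPEL3, YPEL5 and YPEL2, are shown here by the DNA just upstream of their RefSeq start sites. These stretches are printed because the results below turn on these genes. They come from RefSeq (GRCh38.p14), are written 5′ to 3′ along the strand of the gene, and hold no annotated exon of these genes. Capitals mark GGGCGG, the core of a GC box, and CCAAT or its reverse complement ATTGG, which do not overlap one another in these stretches. The YPEL3 stretch is chr16:30096245-30096429 on the minus strand, the interval between the RefSeq start of YPEL3 and the start of its antisense RNA YPEL3-DT. In GENCODE, YPEL3 reaches to 30096915 and overlaps YPEL3-DT, so there the stretch lies within the span of YPEL3. The YPEL5 stretch is chr2:30146757-30146940 on the plus strand, and the YPEL2 stretch is chr17:59331405-59331654 on the plus strand.
YPEL3: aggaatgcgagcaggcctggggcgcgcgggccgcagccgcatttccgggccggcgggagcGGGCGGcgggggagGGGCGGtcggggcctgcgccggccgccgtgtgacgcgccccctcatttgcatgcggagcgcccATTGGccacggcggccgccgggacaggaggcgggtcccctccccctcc
YPEL5: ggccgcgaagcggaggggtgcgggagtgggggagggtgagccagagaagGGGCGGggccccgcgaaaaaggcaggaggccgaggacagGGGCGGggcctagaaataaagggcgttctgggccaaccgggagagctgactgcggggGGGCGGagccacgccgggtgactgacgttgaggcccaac
YPEL2: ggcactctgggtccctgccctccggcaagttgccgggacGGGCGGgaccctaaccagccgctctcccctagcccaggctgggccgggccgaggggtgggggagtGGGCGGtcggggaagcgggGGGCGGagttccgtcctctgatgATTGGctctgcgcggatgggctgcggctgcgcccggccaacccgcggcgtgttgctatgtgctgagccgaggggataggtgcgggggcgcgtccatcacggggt
All 3 stretches hold GGGCGG. Counted on both strands over the window from 250 bases before to 50 bases after the start, YPEL2, YPEL3 and YPEL5 each held 3 GGGCGG matches, while 45% of 35116 RefSeq promoters held at least 1. YPEL2 and YPEL3 each held 1 CCAAT, which 34.6% of promoters held, and YPEL5 held none. The YPEL3 window also held 1 TGTTTAC, found in 3.4% of promoters, and 1 match to the p53 half-site motif, found in 6.6%. Both lie outside the stretch printed, and the windows of YPEL2, YPEL4 and YPEL5 held neither. No window of the 4 YPEL genes in the promoter table held CACGTG or TATAAA, found in 7.3% and 11.5% of promoters. GC content was 79% for YPEL3 with 42 CpG dinucleotides, 75% for YPEL2 with 33, 70% for YPEL5 with 25 and 62.3% for YPEL4 with 10, against medians of 58.7% and 14 over all promoters. The YPEL4 window, chosen by the same rule, held none of these motifs. A match is a run of letters and says nothing of binding.

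VIM-AS1 itself ranged from 2019 to 2763 normalized reads in its group and from 1.22 to 8.63 in the control group, as labelled. Recovered reads per library ranged from 14762893 to 19889745, and a count of 3 reads was worth 2.37 to 3.67 normalized reads, a limit that covers counting error only. Replicate 3 of both groups differed from its fellow libraries. Over 13168 genes averaging 20 or more, GC content was taken from the longest transcript of each gene. The shift of the third library against the other 2 of its group followed it (Spearman rho -0.83 across genes, which are not independent replicates). Results are therefore given both from the limma fit with no such term, the main test, and from the same fit with a term for the third library of each group. The label LNCaP was checked against prostate luminal markers. KLK3 was listed at 0 in 5 of 6 libraries and FOLH1 in 4 of 6, with highest values of 1.92 and 3.84, although LNCaP cells are known to make both. KLK2 and TMPRSS2, also in the list of 10 luminal markers, were not among the genes in the data. HOXB13 ranged from 401.2 to 807.3, SLC45A3 from 50.1 to 99.0 and KRT8 from 51008 to 99727. The cells are called by their label only. All 6 fibroblast markers had reads. Their summed level ranged from 1781 to 2548 in the VIM-AS1 group and from 2875 to 3714 in the control group. Over all 6 libraries COL1A1 ranged from 846.3 to 1651, PDGFRB from 806.4 to 1851, DCN from 90.6 to 342.0 and COL3A1 from 4.89 to 12.6. COL1A2 and LUM were listed at 0 in 5 of 6 libraries each. The endothelial markers summed to 64.5 to 108.8 with VIM-AS1 and 33.2 to 64.7 in the controls. Over all 6 libraries VWF ranged from 22.1 to 97.0 and CDH5 from 5.53 to 16.3, while PECAM1 was listed at 0 in 5 of 6. The leukocyte markers summed to 40.2 to 46.4 with VIM-AS1 and 41.1 to 75.7 in the controls. The part of these other cell type markers in the YPEL differences was not tested.

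YPEL3 was much lower with VIM-AS1. The gene (ENSG00000090238) lies on chromosome 16 at 30092314 to 30096915 on the minus strand. Its values were 79.0, 72.5 and 45.0 normalized reads in VIM-AS1 replicates 1 to 3 and 438.4, 455.7 and 316.7 in control replicates 1 to 3. The lowest control library stood well above the highest VIM-AS1 library, and within each group the third library was the lowest. The means were 65.5 ± 18.0 (SD, n = 3) and 403.6 ± 75.7 (SD, n = 3), so the control mean was 6.16 times the VIM-AS1 mean. These values rest on 75, 74 and 44 recovered reads against 457, 373 and 401. On the log2(value + 1) scale the difference was -2.63 with a standard error of 0.287, or 0.155 with the third-library term. Between libraries of the same number it was -2.46, -2.64 and -2.79. It was the lowest difference among the 13175 genes averaging 20 or more, where the median was 0.05.

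**Figure D1:**
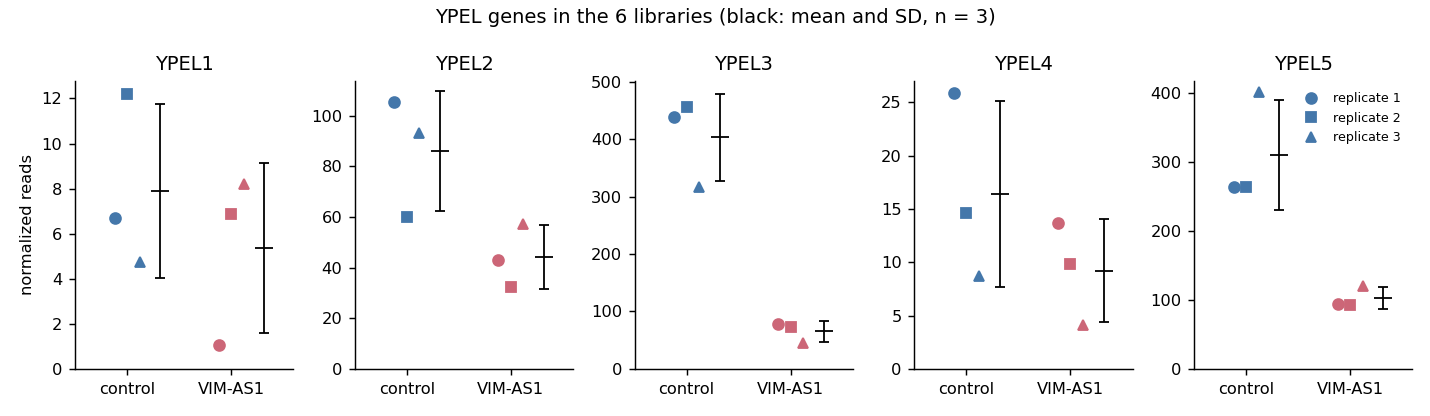
Normalized reads of the 5 YPEL genes (vertical axes, each panel with its own scale from 0) in the control and VIM-AS1 libraries, with the replicate number as the marker shape and the group mean and SD in black. YPEL3 falls from 316.7 or more in the controls to 79.0 or less, the groups of YPEL5 and YPEL2 do not overlap, and those of YPEL1 and YPEL4 do.

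YPEL5, the CTLH partner, showed the next largest difference of the family. The gene (ENSG00000119801) lies on chromosome 2 at 30146941 to 30160533 on the plus strand. Its values were 94.8, 93.1 and 120.7 normalized reads in the VIM-AS1 libraries and 263.8, 263.9 and 402.0 in the controls. No VIM-AS1 library came near a control library, and here the third library of each group was the highest, the opposite of YPEL3. The means were 102.9 ± 15.5 (SD, n = 3) and 309.9 ± 79.8 (SD, n = 3), a control mean 3.01 times that with VIM-AS1. The log2 difference was -1.56 with a standard error of 0.262, and limma with no further term gave an adjusted p of 0.0626 over all genes, just short of the threshold of 0.05. With the third-library term the standard error was 0.149 and the adjusted p was 1.57e-06 in limma, and edgeR's quasi-likelihood test with that term, run on recovered reads, gave 6.89e-08. With the replicate number as a block, a pairing that the labels do not name, limma gave an adjusted p of 7.68e-09. The difference was -1.48 in replicates 1 and 2, with an adjusted p of 0.0267 in limma without both of the third libraries, and -1.73 in replicate 3. With the term the call held when any 1 of the 6 libraries was left out, and without the term it was missed each time. An exact two-sided permutation test of YPEL5 alone gave p = 0.1, the smallest that 3 against 3 libraries allow. Among 9758 genes averaging 100 or more, only 12 (0.123%) had a lower difference than YPEL5.

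YPEL2 was also lower, by a smaller amount and with less agreement between tests. The gene (ENSG00000175155) lies on chromosome 17 at 59331689 to 59401729 on the plus strand. Its values were 43.2, 32.3 and 57.3 normalized reads with VIM-AS1 and 105.5, 59.9 and 93.2 in the controls. The groups did not overlap, but VIM-AS1 replicate 3 and control replicate 2 were only 57.3 and 59.9. The means were 44.3 ± 12.5 (SD, n = 3) and 86.2 ± 23.6 (SD, n = 3), a control mean 1.95 times that with VIM-AS1. The log2 difference was -0.94 with a standard error of 0.340 and an adjusted p of 0.266 in limma with no further term. With the third-library term the adjusted p was 0.0129 in limma and 0.00451 in edgeR, and with the replicate block it was 0.00204 in limma. The call with the term was lost without VIM-AS1 replicate 2 (adjusted p = 0.0814), VIM-AS1 replicate 3 (0.145), control replicate 1 (0.0809) or control replicate 3 (0.153). The difference was -1.07 in replicates 1 and 2, with an adjusted p of 0.15 in limma without both of the third libraries, and -0.69 in replicate 3. An exact two-sided permutation test of YPEL2 alone gave p = 0.1. Among the 13175 genes averaging 20 or more, 502 (3.81%) had a lower difference.

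YPEL4 and YPEL1 were at the edge of what these libraries can measure. YPEL4 (ENSG00000166793, chromosome 11 at 57645087 to 57649944, minus strand) had 13.7, 9.80 and 4.09 normalized reads with VIM-AS1 and 25.9, 14.7 and 8.69 in the controls. The 2 groups overlapped, and the third library was the lowest of each. The means were 9.20 ± 4.83 (SD, n = 3) and 16.4 ± 8.74 (SD, n = 3). The log2 difference was -0.78 with a standard error of 0.551, with an adjusted p of 0.587 in limma and 0.261 with the third-library term, so no difference was detectable at this depth. YPEL1 (ENSG00000100027, chromosome 22 at 21697544 to 21735834, minus strand) had 1.05, 6.86 and 8.19 normalized reads with VIM-AS1 and 6.71, 12.2 and 4.74 in the controls. These are 1 to 10 recovered reads per library, and the groups overlapped widely. The log2 difference was -0.66 with a standard error of 0.662, with an adjusted p of 0.722 in limma and 0.531 with the third-library term. It was negative in replicates 1 and 2 and 0.68 in replicate 3. Without VIM-AS1 replicate 1, which held 1 read, the YPEL1 difference was 0.02, or 0.08 with the term.

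**Figure D2:**
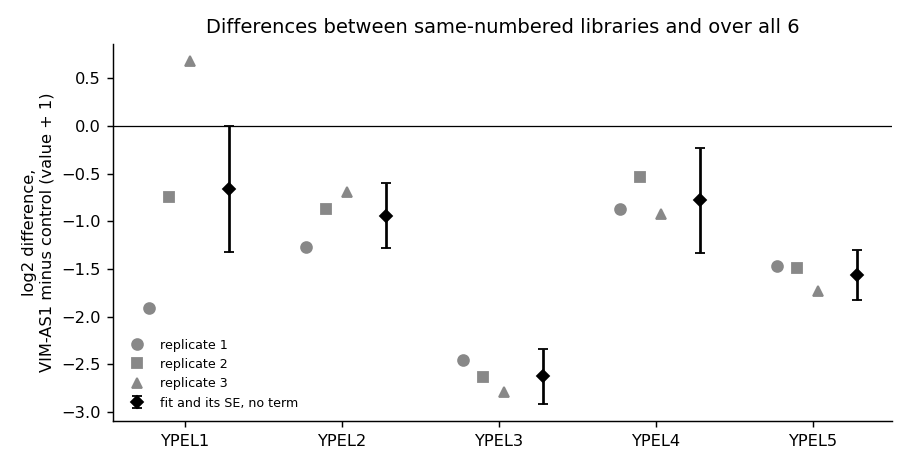
Log2 difference, VIM-AS1 minus control, of each YPEL gene on the log2(value + 1) scale: grey markers are the differences between libraries of the same replicate number, and black diamonds with bars are the limma estimates over all 6 libraries and their standard errors with no further term. The 3 markers of YPEL3 lie between -2.79 and -2.46 and those of YPEL5 between -1.73 and -1.47, while those of YPEL1 span 0.

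Read against the whole table, limma with no further term called 2 genes lower (0.00956% of 20927) and 3 higher (0.0143%). With the third-library term limma called 7.94% of genes lower and 11.5% higher, and of the 4 YPEL genes tested YPEL2 and YPEL5 were among those called lower. The replicate block called 10.8% lower and edgeR with the term 8.64%, again with YPEL2 and YPEL5 among them. Groups that did not overlap, with VIM-AS1 lower, were found for 10.3% of genes, and for YPEL2 and YPEL5 of the 4. All 5 differences were negative, beside 51.9% of all genes tested. As 2 of the 5 signs belong to genes whose groups overlapped and 1 belongs to the gene that chose the family, nothing particular to the family is read from this.

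Levels between the genes were compared per kilobase of merged exon. In the controls the order was YPEL3 at 126.9 ± 23.8 (SD, n = 3) normalized reads per kb, YPEL5 at 90.6 ± 23.3, YPEL2 at 9.94 ± 2.73, YPEL4 at 3.68 ± 1.96 and YPEL1 at 1.67 ± 0.82. YPEL3 and YPEL5 overlapped in that group, as did YPEL4 and YPEL1, and the other neighbours in the order were separate. With VIM-AS1 YPEL5 came first at 30.1 ± 4.53 (SD, n = 3), then YPEL3 at 20.6 ± 5.67, YPEL2 at 5.11 ± 1.44, YPEL4 at 2.06 ± 1.08 and YPEL1 at 1.14 ± 0.80. YPEL5 and YPEL3 were separate there and YPEL4 and YPEL1 overlapped. With the length of the longest transcript instead, both orders stayed as they were, but YPEL3 and YPEL5 became separate in the controls and overlapped with VIM-AS1.

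The family's summed level per kb was nearly the same in the libraries of a group. It was 60.8, 57.4 and 58.7 with VIM-AS1 and 234.3, 233.2 and 230.8 in the controls. The means were 59.0 ± 1.74 (SD, n = 3) and 232.8 ± 1.80 (SD, n = 3). With the longest transcript the sums were 83.9 to 89.7 and 341.3 to 357.1. The sum holds YPEL3, whose fall chose the family, so it is a description. YPEL3 made up 40.8%, 39.7% and 24.1% of the sum with VIM-AS1 and 58.8%, 61.4% and 43.1% in the controls. YPEL5 made up 45.6%, 47.4% and 60.1% with VIM-AS1 and 32.9%, 33.1% and 50.9% in the controls. In each group the third library thus held less YPEL3 and more YPEL5 than the other 2. YPEL3 and YPEL5 together made up 84.2% to 87.1% with VIM-AS1 and 91.7% to 94.5% in the controls.

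**Figure D3:**
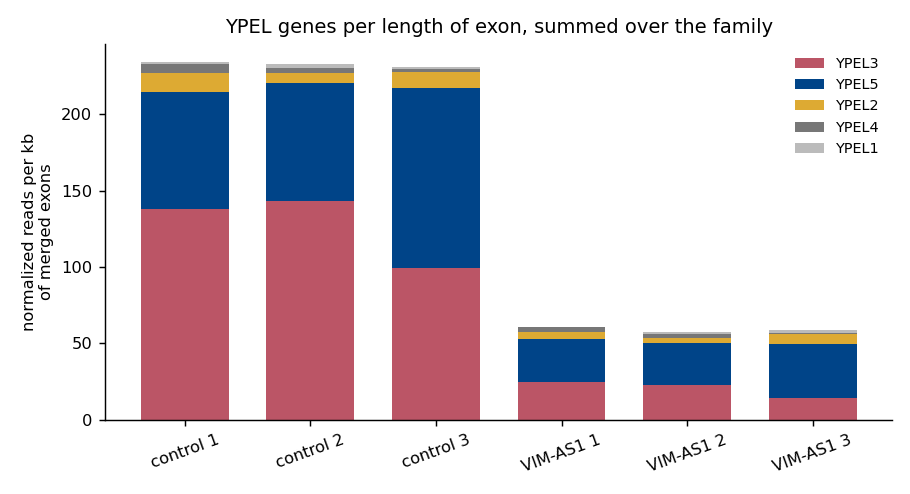
Normalized reads per kilobase of merged exons for the 5 YPEL genes, stacked in each of the 6 libraries. The stacks sum to 230.8 to 234.3 in the controls and 57.4 to 60.8 with VIM-AS1, and the YPEL3 part is smaller in the third library of each group than in the other 2.

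Ratios within a library do not depend on the library's scaling. The log2 ratio of YPEL3 to YPEL5 was -0.26, -0.36 and -1.42 with VIM-AS1 and 0.73, 0.79 and -0.34 in the controls, a difference in means of -1.07. Control replicate 3 fell among the VIM-AS1 libraries, so the groups overlapped on this ratio. The log2 ratio of YPEL3 to YPEL2 was 0.87, 1.17 and -0.35 with VIM-AS1 and 2.06, 2.93 and 1.77 in the controls, with no overlap. That of YPEL5 to YPEL2 was 1.13, 1.53 and 1.08 with VIM-AS1 and 1.32, 2.14 and 2.11 in the controls, and the groups overlapped. These are descriptions, as YPEL3 enters the first 2 ratios and the third was not tested.

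The third library shifted the members in directions that followed the GC content of their longest transcripts in part. Shifts are the third library minus the mean of the other 2, on the log2 scale. For YPEL3, whose longest transcript is 57.2% GC, they were -0.74 with VIM-AS1 and -0.50 in the controls. For YPEL4, at 55.1%, they were -1.31 and -1.08. They were 0.36 and 0.61 for YPEL5 at 40.3% GC and 0.60 and 0.23 for YPEL2 at 45.4%. Genes averaging 20 or more had median shifts of -0.05 and -0.11 at a median GC of 49.3%. YPEL1, at 50.1% GC and few reads, shifted by 1.19 and -0.82. With GC and length trends removed from each library beside the term, the YPEL5 difference was -1.45 (limma, adjusted p = 2.7e-06) and the YPEL2 difference -0.99 (adjusted p = 0.00594).

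Reads can be shared where genes are copies or overlap, so this was checked in the annotation. No stretch of 50 bases in any YPEL transcript matched another YPEL gene or a YPEL pseudogene exactly, and YPEL5 shared 0 of 3693 such stretches with any other gene. YPEL1 shared 2493 of 4753 (52.5%), mostly with PPIL2, a cyclophilin-like protein gene on the opposite strand whose exons cover 2472 of the 4713 exon bases of YPEL1. PPIL2 averaged 1370 normalized reads with VIM-AS1 and 1162 in the controls. The labels name no strand-marking kit, and how featureCounts treated strand is not given in the sources used here, so reads of the 2 genes cannot be told apart there and the level of YPEL1 is uncertain. YPEL3 shared 324 of 3595 stretches (9.01%) with transcripts of 67 other genes, 252 of them with YPEL3-DT, which covers 300 of its 3181 exon bases. By exon, YPEL4 shares 268 of 4460 with CLP1 and 197 with MIR130AHG, and YPEL2 shares 144 of 8667 with AC091059.1. YPEL3-DT had 15.8, 7.84 and 8.19 normalized reads with VIM-AS1 and 14.4, 33.0 and 11.8 in the controls, with overlapping groups. Its log2 difference was -0.77 with a standard error of 0.50 (limma, adjusted p = 0.547, and 0.272 with the third-library term). The pseudogene YPEL5P1 had at most 4.89 normalized reads and YPEL5P2 at most 8.19, and neither passed the test (adjusted p = 0.698 and 0.738, limma).

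The genes beside YPEL3 differed by less. TBX6, a T-box transcription factor gene 426 bp away, was the nearest to it in value. It averaged 15.2 ± 4.83 (SD, n = 3) with VIM-AS1 and 36.7 ± 11.5 (SD, n = 3) in the controls. The groups did not overlap, and the log2 difference was -1.22 with a standard error of 0.357 with the term. TBX6 passed with the third-library term (limma, adjusted p = 0.0202) and not without it (0.224), and the call was lost without either of the third libraries, VIM-AS1 replicate 1 or control replicate 1. Further out, PPP4C, the catalytic subunit of protein phosphatase 4, differed by -0.03 and ALDOA, the glycolytic enzyme aldolase A, by -0.28. On the other side GDPD3, a glycerophosphodiesterase gene, differed by -0.82 and AC012645.2 by -0.49, and none of these 4 passed (adjusted p from 0.128 to 0.866 with the term).

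**Figure D4:**
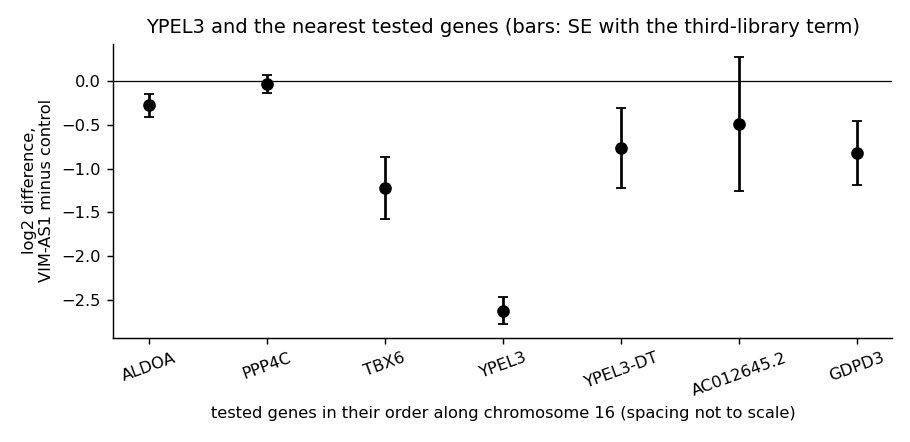
Log2 difference, VIM-AS1 minus control, of YPEL3 and the 3 nearest tested genes on each side, in their order along chromosome 16 with spacing not to scale; bars are limma standard errors with the third-library term. YPEL3 lies at -2.63 and its neighbours between -1.22 and -0.03.

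Around the other members, with the third-library term, LBH beside YPEL5 fell by 0.56 on the log2 scale (limma, adjusted p = 0.00146). CLP1 beside YPEL4, an RNA kinase gene, rose by 0.58 (adjusted p = 0.00271). Neither passed without the term, and both calls were lost without either of the third libraries. Those fits again give the estimate without both, where most calls over all genes were lost too. GDPD1 and DHX40 beside YPEL2, ALK beside YPEL5, PPIL2 beside YPEL1 and MIR130AHG beside YPEL4 did not pass, with differences from -0.70 to 0.48.

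The other subunits of the CTLH complex averaged 156.4 or more normalized reads in each group, and their differences lay between -0.15 and 0.43. Of 10 genes, 1 rose and 0 fell with the third-library term, and 9 did not pass, where 11.5% of all genes were called higher and 7.94% lower. The median difference of the 10 was 0.06, beside -0.02 for all genes tested and 0.11 for the 9758 genes averaging 100 or more. The gene that rose was RANBP10, a scaffold subunit, at 711.9 ± 76.4 (SD, n = 3) with VIM-AS1 and 532.4 ± 100.8 (SD, n = 3) in the controls, a difference of 0.43 (limma, adjusted p = 0.0103). Its paralog RANBP9 differed by -0.09. MAEA and RMND5A, which form the catalytic RING pair, differed by 0.04 and 0.12, and WDR26 and GID4, which take part in substrate binding, by -0.15 and -0.07.

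**Figure D5:**
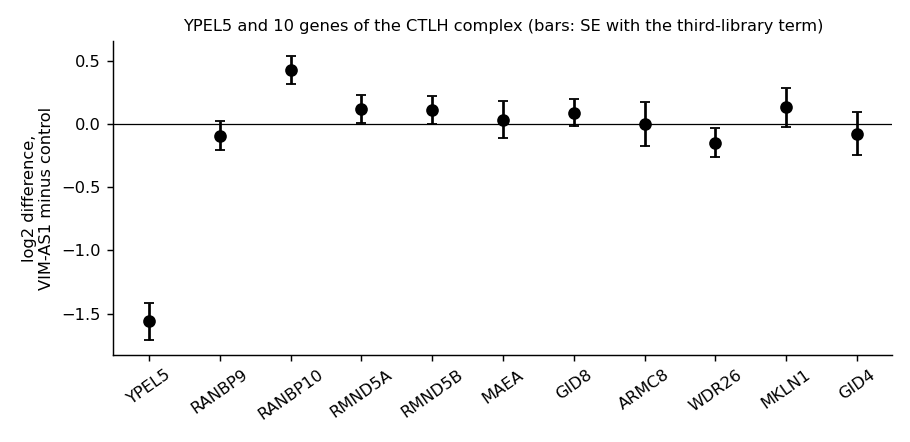
Log2 difference, VIM-AS1 minus control, of YPEL5 and of 10 genes of the CTLH complex, with limma standard errors from the fit with the third-library term. YPEL5 lies at -1.56, and the 10 complex genes lie between -0.15 and 0.43.

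The Yippee domain belongs to the beta-tent fold, which is also found in cereblon, the Mis18 proteins, methionine sulfoxide reductases B and the RIG-I-like receptors. Of 12 genes of other proteins with this fold, 3 rose and 1 fell with the third-library term, and 8 did not pass, beside the same 11.5% higher and 7.94% lower over all genes. The median difference was 0.41, beside -0.02 for all genes tested and 0.11 for those averaging 100 or more. The 12 include RIGI, IFIH1 and DHX58, which had few reads, with group means of 1.75 to 12.0. They differed by 0.80, 1.36 and 0.50, did not pass, and lie above the median, so nothing particular to the list is read from it. CENPV, a centromere protein gene, averaged 1921 ± 427.0 (SD, n = 3) with VIM-AS1 and 1229 ± 216.7 (SD, n = 3) in the controls, a difference of 0.64 (limma, adjusted p = 0.000358). MSRB3 rose by 0.46 (adjusted p = 0.0238) and OIP5, which encodes Mis18-beta, by 0.41 (adjusted p = 0.0384). MSRB2 fell by 0.80, from 178.7 ± 42.8 (SD, n = 3) in the controls to 100.9 ± 11.1 (SD, n = 3) with VIM-AS1 (adjusted p = 0.0042). CRBN, the cereblon gene, differed by -0.46 and did not pass (adjusted p = 0.0762).

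YPEL3 is known for growth arrest, so growth arrest genes and cell cycle inhibitors were counted beside it. Of 21 such genes, 1 rose and 3 fell with the third-library term, and 17 did not pass. These 19.0% called lie near the share over all genes, 11.5% higher and 7.94% lower, so the count is no result about the list. The median difference was -0.13, beside -0.02 for all genes tested and 0.11 for those averaging 100 or more. The 3 that fell were TP63, a transcription factor gene of basal epithelium, by 1.79 (25.6 to 7.18 normalized reads, limma, adjusted p = 0.00681), the CDK inhibitor genes CDKN2B by 0.73 (222.6 to 134.4, adjusted p = 0.00317) and CDKN1C by 0.59 (1208 to 802.2, adjusted p = 0.00124). CDKN1A, which encodes the CDK inhibitor p21, differed by -0.13 (adjusted p = 0.453), and MDM2 by -0.17 (adjusted p = 0.37).

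Of 13 genes used as markers of senescence or its secretome, 12 could be tested, all but IL1B. With the third-library term 5 rose and 1 fell, and 6 did not pass, beside 11.5% higher and 7.94% lower over all genes. The median difference was 0.45, beside -0.02 for all genes tested and 0.11 for those averaging 100 or more. Nothing particular to the list is read from this. LMNB1, a nuclear lamina gene, rose by 0.70, from 1374 ± 251.9 (SD, n = 3) to 2222 ± 362.0 (SD, n = 3), with an adjusted p of 9.06e-05 in limma. IGFBP7 and IGFBP3, which encode secreted binding proteins of insulin-like growth factors, rose by 0.66 and 0.65 (adjusted p = 0.000503 and 0.000292). FUCA1, a lysosomal fucosidase gene, rose by 0.57 (adjusted p = 0.0299), and HMGA1, a chromatin protein gene, by 0.50 (adjusted p = 0.0071). In all 4 lists 15 genes passed with the term and none without it, and all 15 calls were lost when either VIM-AS1 replicate 3 or control replicate 3 was left out.

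Across the 6 libraries, on the log2(value + 1) scale, YPEL3 and YPEL5 had a Pearson r of 0.877, YPEL2 and YPEL5 one of 0.863 and YPEL2 and YPEL3 one of 0.714. YPEL3 and YPEL4 had 0.687, and the remaining pairs ran from -0.112 to 0.36. These are descriptions over 6 points that share 2 groups and the shift of the third libraries. Among those 9758 genes, the 5 most like YPEL3 were CORO6, a coronin gene of the actin cytoskeleton, CCDC40, needed for motile cilia, BMF, a pro-apoptotic BCL2 relative, RGS11, a regulator of G protein signalling, and FZD10-AS1, an antisense RNA, with r from 0.995 to 0.998. CORO6 averaged 290.6 ± 38.1 (SD, n = 3) with VIM-AS1 and 770.3 ± 47.4 (SD, n = 3) in the controls, and BMF averaged 39.1 ± 6.86 (SD, n = 3) and 179.6 ± 19.0 (SD, n = 3). Among the 3 most like YPEL5 were DCN, the gene of the matrix proteoglycan decorin (r = 0.995), and PHF21A, a chromatin protein gene (r = 0.990). DCN averaged 100.1 ± 16.1 (SD, n = 3) with VIM-AS1 and 252.6 ± 77.4 (SD, n = 3) in the controls, a log2 difference of -1.30, while PHF21A differed by -0.66. The 3 most like YPEL2 were ZDHHC12-DT, the splicing factor gene SYF2 and the ESCRT-III gene CHMP1B, with r from 0.983 to 0.991 and differences from -0.66 to -0.23.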

How the data were processed

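The 6 libraries hold total RNA of cells labelled LNCaP, in 2 groups of 3, each built from 1.3 µg of RNA. Reads were trimmed with fastp, aligned to hg38 with HISAT2 and counted with featureCounts, per the submitters' processing notes; neither versions nor annotation are given in the sources used here. Deposited values are a signal per gene, namely whole reads divided by 1 factor per library (100% of values came out whole within 0.01 read), and the report calls them normalized reads. As the unit is not raw counts, limma 3.58.1 (R 4.3.3) with an intensity trend was run on log2(value + 1), which understates the fold of genes with few reads, over the 20927 genes with a mean of at least 1. P-values are two-sided and adjusted by Benjamini-Hochberg over all of them (threshold 0.05). edgeR 4.0.16 and DESeq2 1.42.0 were run on the recovered reads. Each fitting script was tested on simulated data.

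In the gene lists and neighbours, rose and fell mean past the threshold in limma with a term for the third library of each group. The replicate number was also fitted as a block. Libraries of the same number deviated together (Pearson r of deviations 0.319, 0.724 and 0.843 over 13175 genes). The shared shift of the third libraries raises such values by itself, since deviations cancel out within a group. VIM-AS1 replicate 1 correlated more with control replicate 2 (0.418), and VIM-AS1 replicate 2 with control replicate 1 gave 0.328. These values therefore cannot settle whether replicates 1 and 2 are paired by number. Symbols, positions and exon lengths come from GENCODE 29, and promoters from RefSeq.

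The members and lists were chosen with earlier results of these data known. Named genes are the members, VIM-AS1, other YPEL symbols, the nearest tested neighbours and genes with overlapping exons. They also include list members past the threshold with the term, and the genes most alike by Pearson r. CTLH subunits, CRBN, RIGI, IFIH1, DHX58, CDKN1A, MDM2 and the cell type markers were named beyond that rule. YPEL5P3 and the markers KLK2, TMPRSS2, PTPRC and CD3E were not among the 25969 genes in the data. No value was therefore seen for them, and the reason for their absence was not tested. Some genes that the rule or the lists cover are counted but not reported by name here.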

Additional observations from a re-analysis of the deposited data

How the results depend on the processing

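YPEL3 kept its direction in all 27 alternatives, with log2 differences from -2.79 to -2.38, and YPEL4 in all 27, from -1.14 to -0.34, with no call. YPEL1 did not pass the stricter filter on 10 reads and has no value there. Leaving out 1 library, with or without the third-library term, gave YPEL1 differences from -1.33 to 0.084, YPEL2 differences from -1.18 to -0.68 and YPEL5 differences from -1.68 to -1.36. YPEL5 passed the threshold, and YPEL2 did where it is named, at -1.56 and -0.94 with the third-library term, -1.59 and -0.995 in edgeR with that term, -1.45 and -0.99 with GC and length correction, -1.56 and -0.94 with the replicate block, and, in alternatives chosen after seeing the data, -1.56 and -0.95 with TMM scaling and the term and -1.62 and -1.002 with library size scaling and the term. YPEL5 alone passed at -1.59 in DESeq2 and -1.48 without both of the third libraries. The third-library term, too, was prompted by a shift seen in these data, as the labels name no batch. The replicate block changed no other member's call. The difference between groups in the log2 ratio of YPEL3 to YPEL5 stayed between -1.44 and -0.70. Genes called higher and lower numbered 3 and 2 in the main test, 15 and 13 with library size scaling, 5 and 12 with no filter, 133 and 220 in DESeq2, 2403 and 1662 with the third-library term, 2391 and 1808 in edgeR with it, 3262 and 1434 with GC and length correction, 3315 and 2256 with the replicate block, 179 and 157 without both of the third libraries, 2393 and 1653 with TMM scaling and the term, and 1723 and 1494 with library size scaling and the term. Leaving out 1 library gave 1 to 2747 higher and 0 to 1591 lower. Where a call was lost, the cause was not tested. Depth limits YPEL1 and YPEL4, which rest on 1 to 27 reads a library.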
